A study of Mus musculus with 7 samples.

Results

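The 35 genes described here regulate autophagy and lysosomes: the kinase, lipid kinase, lipid transfer, conjugation and protease machinery that builds autophagosomes, the LC3 and GABARAP proteins with 3 cargo receptors, and the transcription factors TFEB and TFE3 with the lysosomal membrane protein LAMP1. They were chosen by name. For each, the accessible regions within 200 bp up- or downstream of a transcription start site (TSS) of any of its GENCODE M21 transcripts were taken, and after them the regions in its gene body. All 35 had a promoter region, among 13037 protein-coding genes with one, and together they held 46 of the 15422 promoter regions and 67 gene body regions outside promoters, of 55680 regions in all.

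The data were ATAC-seq libraries, in which a transposase inserts sequencing adapters where chromatin is open, from liver of C57BL/6N mice, male by the study's methods. Young liver came from mice aged 3 months (n = 3 samples) and aged liver from mice aged 18 months (n = 4 samples), and no treatment, transgene or deletion is given for either group. By the deposited description the 4 aged samples came from 3 animals, 1 of which gave 2 lobules, and which samples these were is not given, so p-values measure in part a spread within an animal. Each library was a piece of whole liver, so fewer cells of a type and less accessibility per cell cannot be told apart.

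Macroautophagy encloses cytoplasm in a double membrane, the autophagosome, which then fuses with lysosomes that digest its contents. The ULK kinase complex starts the process, a lipid kinase complex marks the membrane, ATG9 vesicles and the lipid transfer protein ATG2 make it grow, and conjugation enzymes attach LC3 and GABARAP proteins to it. In liver the process supplies amino acids and lipids during fasting and clears damaged mitochondria and protein aggregates, and TFEB and TFE3 switch on lysosomal and autophagy genes through CLEAR elements in promoters.

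The total counts in regions ran from 4474652 to 25461110 per sample, and the most accessible promoter region of each member held at least 38 counts in every sample, the members' other promoter regions at least 11. The share of all counts that fell in promoter regions was 52.72% to 54.88% in young and 54.82% to 57.4% in aged samples. All 6 hepatocyte marker genes had a promoter region (mean level 5.75 to 6.08 log2 CPM in young and 6.19 to 6.35 in aged samples), whereas 1 of 7 Kupffer cell, 3 of 6 sinusoidal endothelial, 3 of 6 stellate, 3 of 5 cholangiocyte and 0 of 6 lymphocyte markers had one, Adgre1, Csf1r, Pecam1, Lyve1, Dcn, Krt19 and Ptprc being among those with none. The mean level of the 3 stellate markers was 2.34 to 2.55 log2 CPM in young and 1.50 to 2.27 in aged samples, that of the 3 endothelial markers was 3.84 to 4.15 and 3.58 to 4.26, and that of the 3 cholangiocyte markers was 2.88 to 2.99 and 2.51 to 2.89. The Kupffer cell marker Clec4f was at 1.27 to 1.51 and -0.35 to 1.58. The part of promoter share and cell makeup in the values below was not tested.

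The promoter sequences of the 3 members whose accessibility rose with age are printed first, to show how unlike they are. They run from 250 bases before to 50 bases after the RefSeq start on GRCm38, 5′ to 3′ on the gene's strand, with every CG dinucleotide in capitals. Wipi1 is at chr11:109611340-109611639 on the minus strand, Atg9a at chr1:75191961-75192260 on the minus strand and Gabarap at chr11:69991120-69991419 on the plus strand.
Wipi1: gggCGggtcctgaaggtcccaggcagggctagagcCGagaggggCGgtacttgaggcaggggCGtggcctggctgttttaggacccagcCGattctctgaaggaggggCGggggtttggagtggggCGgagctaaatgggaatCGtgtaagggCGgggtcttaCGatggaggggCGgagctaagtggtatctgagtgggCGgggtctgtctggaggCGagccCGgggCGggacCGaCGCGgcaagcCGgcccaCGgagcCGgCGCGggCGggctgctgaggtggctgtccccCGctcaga
Atg9a: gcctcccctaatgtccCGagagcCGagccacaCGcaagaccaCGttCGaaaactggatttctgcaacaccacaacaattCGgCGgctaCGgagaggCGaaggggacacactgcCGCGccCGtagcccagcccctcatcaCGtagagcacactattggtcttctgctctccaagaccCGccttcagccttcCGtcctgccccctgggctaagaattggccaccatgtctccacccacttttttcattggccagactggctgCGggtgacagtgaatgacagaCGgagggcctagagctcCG
Gabarap: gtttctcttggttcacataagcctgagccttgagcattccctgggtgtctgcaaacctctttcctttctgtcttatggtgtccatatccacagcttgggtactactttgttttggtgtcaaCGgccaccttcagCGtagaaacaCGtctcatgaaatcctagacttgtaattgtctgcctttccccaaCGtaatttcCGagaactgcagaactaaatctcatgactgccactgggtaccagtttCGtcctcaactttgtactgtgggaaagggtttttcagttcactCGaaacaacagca

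The Wipi1 window held 25 CG dinucleotides, the Atg9a window 18 and the Gabarap window 7, the fewest among the 28 members with a RefSeq window. The median over those members was 20, with a highest count of 55, and over all 32851 RefSeq windows it was 7. Promoters rich in CG are typical of broadly used genes.

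Motif matches were looked up on both strands. The CLEAR core TCACGTGA, bound by TFEB and TFE3, was found in 1 of the 28 member windows, that of Atg3, and in 0.974% of all windows. The E-box CACGTG, which lies inside the CLEAR core, was found in 4 (Atg3, Atg5, Atg14 and Lamp1) and in 7.15% of all windows. The cyclic AMP response element TGACGTCA was found in 1 member window (Atg5), beside 1.79% of all, and the forkhead letters GTAAACA in 0 of 28, beside 3.65%. A match is a description of the letters and no evidence of binding. Atg3 and Lamp1 are shown because they hold the CLEAR core and the most E-boxes, with the matches in capitals: Atg3 at chr16:45158579-45158878 on the plus strand and Lamp1 at chr8:13158911-13159210 on the plus strand.
Atg3: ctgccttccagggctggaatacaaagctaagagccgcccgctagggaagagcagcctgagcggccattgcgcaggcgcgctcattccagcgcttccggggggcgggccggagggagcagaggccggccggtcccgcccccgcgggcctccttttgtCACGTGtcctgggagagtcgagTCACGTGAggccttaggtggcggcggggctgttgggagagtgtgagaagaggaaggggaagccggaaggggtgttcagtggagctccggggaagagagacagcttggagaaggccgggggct
Lamp1: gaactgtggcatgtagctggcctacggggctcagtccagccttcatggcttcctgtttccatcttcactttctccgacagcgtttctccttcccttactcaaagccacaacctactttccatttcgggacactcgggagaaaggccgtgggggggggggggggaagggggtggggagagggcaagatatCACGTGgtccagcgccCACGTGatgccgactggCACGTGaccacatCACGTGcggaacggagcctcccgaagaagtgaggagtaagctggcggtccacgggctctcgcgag

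The CLEAR core of Atg3 began 72 bases before the start (position -72), and a further E-box began at position -94. The E-boxes of Lamp1 began at positions -61, -45, -28 and -15.

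Accessibility at the promoter regions of the 35 members was compared first, to ask whether promoters of the autophagy machinery shared in the change with age. Wipi1, Atg9a and Gabarap were more accessible in aged liver, and no member was less accessible (edgeR's quasi-likelihood test, Benjamini-Hochberg adjusted p under 0.05 over all regions). Among all protein-coding genes with a promoter region 5.02% were called more accessible and 1.49% less accessible, so 3 and 0 of 35 members stand beside shares of the same order. The DESeq2 Wald test called 5 members more and 0 less accessible, beside 11.9% and 1.6% of protein-coding genes by the same test. An unadjusted p under 0.05 was found at 10 members with higher and 3 with lower accessibility, beside 27.3% and 7.69% of protein-coding genes. The median log2 fold change of the members was 0.18, from -0.55 at Pik3r4 to 0.54 at Wipi1, beside 0.13 over all protein-coding genes. Of the 35 values 30 were above 0 (85.71%, beside 66.69% of all protein-coding genes, which are not matched for promoter strength, as is done below). This count rested on the scaling: it was 23 with libraries scaled to total counts, where the median of all regions moved from -0.04 to -0.15, and 15 with offsets fitted on mean abundance. The median over all promoter regions moved as well, from 0.094 to -0.025 with total counts and to -0.028 with abundance offsets.

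**Figure D1:**
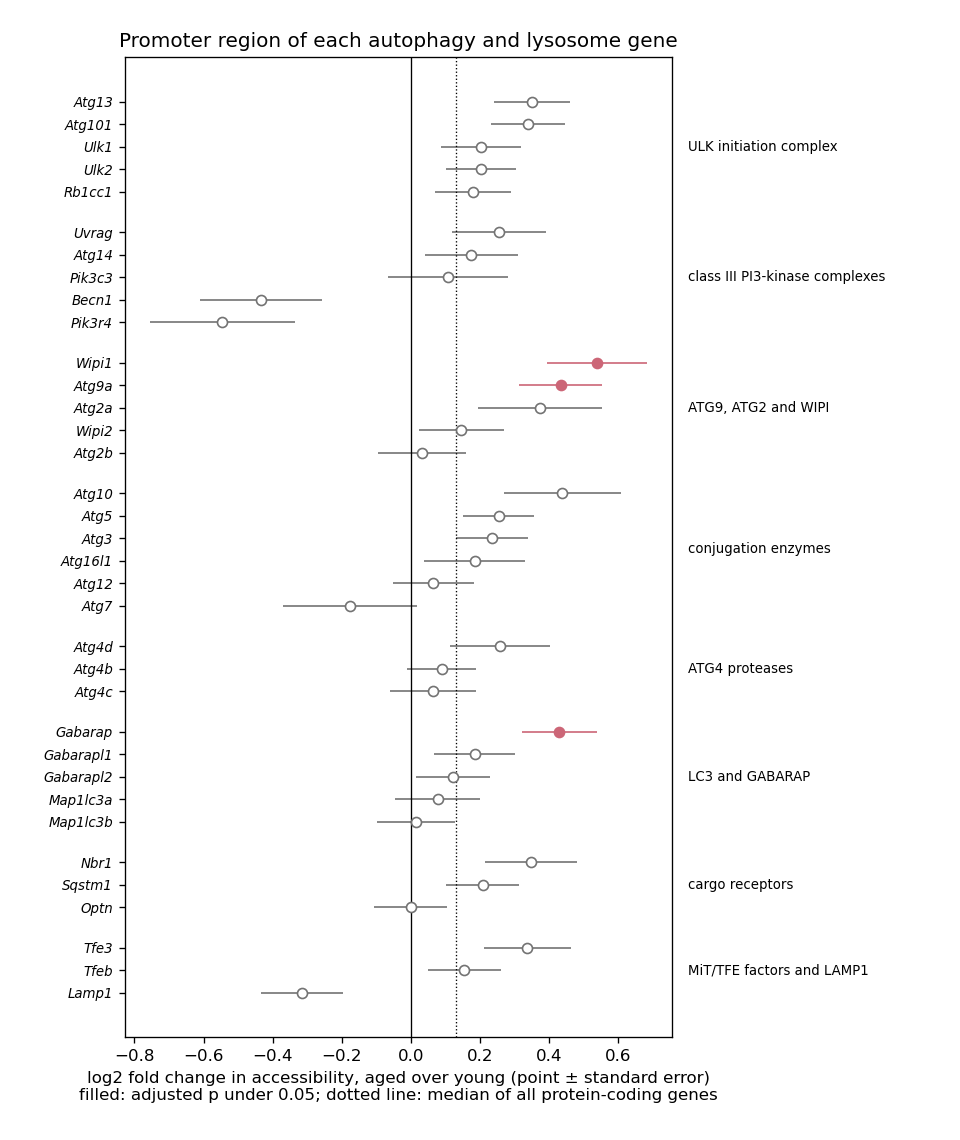
The log2 fold change in promoter accessibility of each member, aged over young, with its standard error, grouped by role. Filled points have an adjusted p under 0.05 and the dotted line is the median of all protein-coding genes (0.13). Of the 35 points 30 lie right of 0 with TMM normalization, and Pik3r4, Becn1 and Lamp1 lie farthest left.

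Every aged sample exceeded every young one at 10 members, where 24.0% of protein-coding genes did so, and every aged sample lay below every young one at 3 members (Pik3r4, Becn1 and Lamp1), where 7.82% did so. Most member promoters were strongly accessible: when all regions were split into 10 classes of equal size by mean level, 20 were in the strongest class, class 10, and 10 in class 9. The log2 fold change was higher at stronger promoter regions in general, and the members' medians lay near those of all promoter regions of the same class. In class 10 the median log2 fold change was 0.22 for the 20 members and 0.28 for all 4527 promoter regions, in class 9 it was 0.16 for 10 members and 0.15 for 3241 promoter regions, and in weaker classes it was -0.18 for 5 members and -0.15 for 7654 promoter regions.

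**Figure D2:**
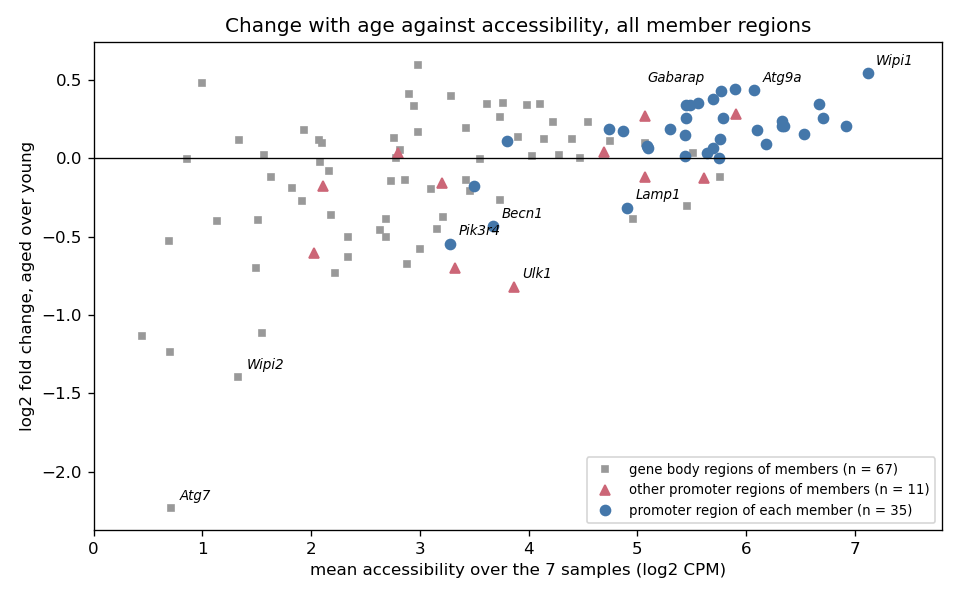
The log2 fold change, aged over young, against mean accessibility over the 7 samples in log2 CPM for every region of the members. Circles are the 35 promoter regions that stand for a gene, triangles the 11 other promoter regions and squares the 67 gene body regions; the names mark regions with an adjusted p under 0.05 and the 3 lowest promoter regions. With TMM normalization circles lie mostly above 0 at the right, and the lowest values lie at weak regions on the left.

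The ULK complex starts autophagy when nutrients or energy are short. None of its 5 members was called, and their log2 fold changes were all positive, from 0.18 to 0.35, with a median of 0.20. Every aged sample was above every young one at 3 of them. At Atg13, whose protein scaffolds the kinase and whose promoter region also covers the TSS of Harbi1, accessibility was 5.30, 5.32 and 5.45 log2 CPM in young samples 1 to 3 and 5.82, 5.61, 5.67 and 5.69 in aged samples 1 to 4, a log2 fold change of 0.35 ± 0.11 (SE; edgeR adjusted p = 0.0716, 0.023 to 0.54 over the alternatives). At Atg101, which stabilises ATG13, it was 5.29, 5.22 and 5.27 in young and 5.61, 5.53, 5.56 and 5.68 in aged samples (log2 fold change 0.34 ± 0.11, edgeR adjusted p = 0.0723, 0.030 to 0.51 over the alternatives). The groups did not overlap at either gene, and neither passed the threshold. The kinase genes themselves had log2 fold changes of 0.20 ± 0.12 at Ulk1 and 0.20 ± 0.10 at Ulk2, and Rb1cc1, the scaffold FIP200, had 0.18 ± 0.11 at a region shared with the antisense gene 4732440D04Rik.

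The class III PI3-kinase complexes make the lipid that recruits later factors. Their 5 members had the lowest median level of the 8 role groups (3.80 log2 CPM) and the lowest values of the list. At Pik3r4, the regulatory subunit VPS15, accessibility was 3.44, 3.38 and 3.94 log2 CPM in young and 3.12, 3.14, 3.18 and 2.74 in aged samples, a log2 fold change of -0.55 ± 0.21 (edgeR adjusted p = 0.128, 0.083 to 0.34 over the alternatives). At Becn1, the subunit Beclin 1 and the least accessible member per kb (10.7 CPM per kb), it was 4.12, 3.77 and 3.87 in young and 3.45, 3.26, 3.60 and 3.65 in aged samples (log2 fold change -0.43 ± 0.18, edgeR adjusted p = 0.147, 0.074 to 0.45 over the alternatives). All 4 aged samples were below all 3 young ones at both genes, and neither difference passed the test. The catalytic subunit gene Pik3c3 (0.11 ± 0.17) and Atg14 (0.18 ± 0.13), whose product directs the complex to autophagosome formation, did not pass the test, nor did Uvrag, which marks the endosomal complex and shares its region with Gm45185 (0.26 ± 0.14).

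The members that deliver and hold lipid at the growing membrane had the highest median log2 fold change among the role groups, 0.37, and 2 of these 5 rose. WIPI1 binds the lipid made by the PI3-kinase. Its promoter region (chr11:109610643-109612113) was the most accessible member per kb (96.8 CPM per kb) and was at 7.04, 6.92 and 6.43 log2 CPM in young and 7.37, 7.21, 7.29 and 7.56 in aged samples. All aged samples were above all young ones, and young sample 3 was the lowest. Young liver had 113 ± 23.7 CPM (SD, n = 3) and aged liver 165 ± 17.5 CPM (SD, n = 4), and the log2 fold change was 0.54 ± 0.14 (SE; edgeR adjusted p = 0.0439, 0.011 to 0.42 over the alternatives).

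Atg9a encodes the transmembrane lipid scramblase of the vesicles that seed the autophagosome. Its region (chr1:75191427-75192732) also covers the TSS of Ankzf1, and reads cannot be assigned to one of the genes. It was at 5.99, 5.90 and 5.55 log2 CPM in young and 6.28, 6.18, 6.31 and 6.29 in aged samples, without overlap and with young sample 3 lowest. Young liver had 56.5 ± 8.69 CPM and aged liver 76.7 ± 3.09 CPM, and the log2 fold change was 0.43 ± 0.12 (edgeR adjusted p = 0.0483, 0.019 to 0.42 over the alternatives). Atg2a, a lipid transfer protein gene, was at 5.81, 5.61 and 4.97 in young and 5.87, 5.66, 5.74 and 6.22 in aged samples. Its groups overlapped, and the log2 fold change of 0.37 ± 0.18 did not pass the test (edgeR adjusted p = 0.215, 0.13 to 0.71 over the alternatives). Wipi2, which recruits ATG16L1, had 0.15 ± 0.12, and Atg2b, at a region shared with Gskip, had 0.03 ± 0.13.

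The conjugation enzymes attach LC3 to lipid in a cascade like that of ubiquitin. None of the 6 was called, and 5 had values above 0 (median 0.21). Atg10, the E2-like enzyme that joins ATG12 to ATG5, was at 5.97, 5.69 and 5.24 log2 CPM in young and 6.16, 5.76, 6.02 and 6.40 in aged samples. The groups overlapped because aged sample 2 was below young sample 1, and the log2 fold change was 0.44 ± 0.17 (edgeR adjusted p = 0.13, 0.048 to 0.56 over the alternatives). Atg5 (0.25 ± 0.10) and Atg3 (0.23 ± 0.10), the latter at a region shared with Slc35a5, had all aged samples above all young ones without passing the test (edgeR adjusted p = 0.148, 0.037 to 0.94 over the alternatives, and 0.182, 0.053 to 0.83). Atg16l1 had 0.18 ± 0.15 and Atg12, at a region shared with Ap3s1, 0.07 ± 0.12.

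Atg7 encodes the E1-like enzyme at the head of both conjugation pathways. Its promoter region was among the weakest of the list, at 3.55, 3.60 and 3.68 log2 CPM in young and 3.54, 3.23, 3.78 and 3.12 in aged samples. The groups overlapped, with a log2 fold change of -0.18 ± 0.19 (edgeR adjusted p = 0.618, 0.39 to 0.87 over the alternatives).

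The ATG4 proteases trim LC3 and GABARAP before conjugation and release them afterwards. None of the 3 was called: Atg4d had a log2 fold change of 0.26 ± 0.14, Atg4b, whose region also covers the TSS of Thap4, 0.09 ± 0.10, and Atg4c 0.06 ± 0.12.

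Of the 5 genes whose proteins are put on the membrane, Gabarap rose. Its region (chr11:69990787-69991934) was at 5.57, 5.49 and 5.52 log2 CPM in young and 5.92, 5.79, 6.05 and 6.04 in aged samples. The young samples lay close together, all below the aged ones. Young liver had 45.9 ± 1.24 CPM and aged liver 61.8 ± 5.09 CPM, which gave a log2 fold change of 0.43 ± 0.11 (edgeR adjusted p = 0.0372, 0.010 to 0.33 over the alternatives). Its relatives had smaller values, 0.18 ± 0.12 at Gabarapl1, whose region also covers the TSS of 1700101I11Rik, and 0.12 ± 0.11 at Gabarapl2. The LC3 genes had 0.08 ± 0.12 at Map1lc3a and 0.01 ± 0.11 at Map1lc3b. Whether Gabarap differed from these 4 was not tested.

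Leaving out a single library changed these calls. Without aged sample 2, Gabarap and Wipi1 passed the threshold and Atg9a did not (edgeR adjusted p = 0.0523), and without any one of young samples 1 to 3 or aged samples 1, 3 and 4 none of the 3 passed, with adjusted p from 0.05005 to 0.127. The share of all protein-coding genes called more accessible, 5.02% with all samples, was 6.66% without aged sample 2, 4.64% without aged sample 4, 3.19% without young sample 3 and 0.115% to 0.338% without any of the other 4 samples. The log2 fold changes were 0.40 to 0.48 at Gabarap, 0.33 to 0.52 at Atg9a and 0.40 to 0.67 at Wipi1 when a sample was left out. Because the 4 aged samples came from 3 animals, each pair of them was also added up to 1 sample: all 3 members passed with aged samples 2 and 4 summed, Gabarap alone passed with 1 and 2 summed, and none passed with the other 4 sums, where 9.15%, 3.9% and 0.591% to 3.03% of all protein-coding genes were called more accessible. None of the 3 passed with total counts, with abundance offsets or with only regions of at least 10 counts in every sample, where the share of all protein-coding genes was 1.67%, 0.115% and 1.43%. The log2 fold changes themselves were smaller with abundance offsets, 0.20 at Gabarap, 0.17 at Atg9a and 0.17 at Wipi1, and with total counts, 0.31, 0.32 and 0.42.

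**Figure D3:**
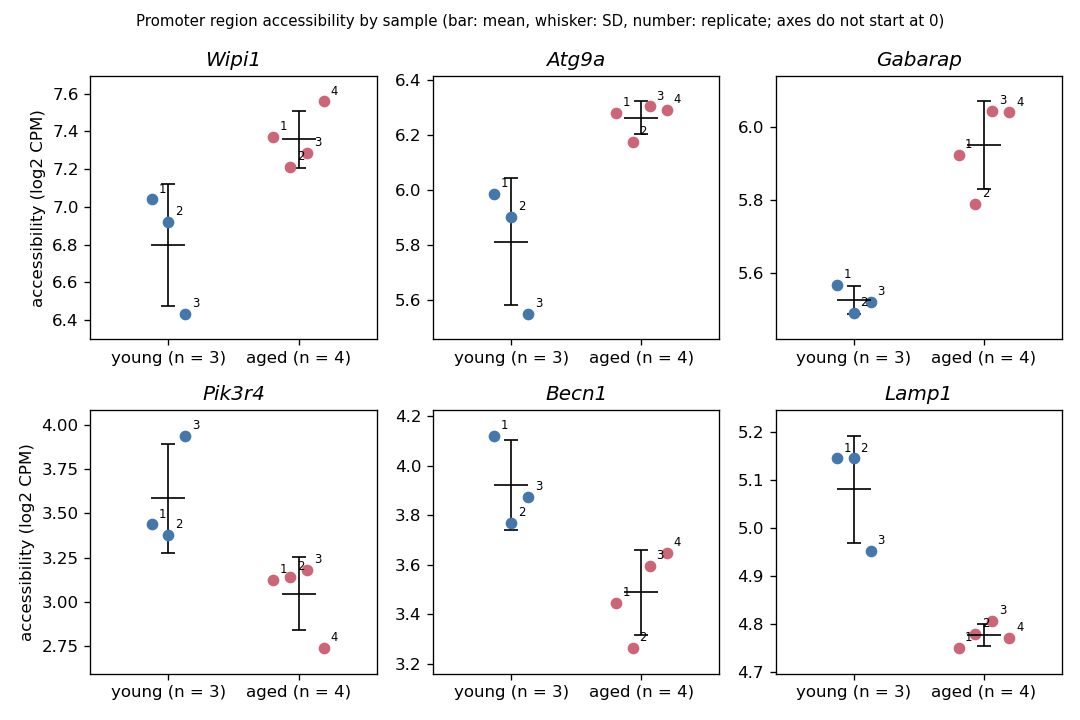
Promoter accessibility in log2 CPM of each young and aged sample at the 3 members that rose and at the 3 with the lowest log2 fold change; points carry the replicate number, bars are means and whiskers SDs, and axes do not start at 0. In each panel the 4 aged samples lie on one side of the 3 young ones.

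The cargo receptors link ubiquitinated cargo to LC3. Sqstm1, the gene of p62, had a log2 fold change of 0.21 ± 0.10 at a region shared with Mgat4b, with all aged samples above all young ones. Nbr1, at a region shared with Brca1, had 0.35 ± 0.13 (edgeR adjusted p = 0.128, 0.036 to 0.95 over the alternatives). Optn, the optineurin gene, showed no difference to be seen at this depth: it was at 5.75, 5.82 and 5.69 log2 CPM in young and 5.83, 5.67, 5.80 and 5.72 in aged samples, a log2 fold change of -0.0006 ± 0.10.

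TFEB and TFE3 drive transcription of lysosomal and autophagy genes. Tfe3 was at 5.40, 5.27 and 5.21 log2 CPM in young and 5.46, 5.50, 5.71 and 5.85 in aged samples. All aged samples were above the young ones, and the log2 fold change of 0.34 ± 0.12 did not pass the test (edgeR adjusted p = 0.115, 0.040 to 0.59 over the alternatives). Tfeb had 0.15 ± 0.11 at its most accessible promoter region. Lamp1, the gene of an abundant glycoprotein of the lysosomal membrane, lay on the other side of 0.

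At Lamp1 accessibility was 5.14, 5.14 and 4.95 log2 CPM in young and 4.75, 4.78, 4.81 and 4.77 in aged samples. The aged samples lay close together and all below the young ones. The log2 fold change was -0.32 ± 0.12 (edgeR adjusted p = 0.12, 0.045 to 0.32 over the alternatives), and it passed the threshold with libraries scaled to total counts, at -0.43.

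Some members have several promoter regions, so accessibility can be compared between annotated starts of 1 gene. Which start is used was not measured. Of the 35 members 9 had more than 1, and the 11 regions other than the most accessible one had log2 fold changes with a median of -0.13, 7 of them below 0. Over the 2117 other promoter regions of all protein-coding genes the median was -0.05, with 1175 below 0. Over all 46 member promoter regions 3 were called more accessible, where 4.48% of all promoter regions were, and 1 less accessible, where 2.06% were. That region lies inside Ulk1 (chr5:110786039-110787430), 23362 bp from the start of the gene, at the start of a transcript with a retained intron. It was at 4.41, 4.63 and 3.87 log2 CPM in young and 3.39, 3.69, 3.29 and 3.76 in aged samples, without overlap, and its log2 fold change was -0.82 ± 0.20 (edgeR adjusted p = 0.0317, 0.010 to 0.15 over the alternatives). Without young sample 1, young sample 2, aged sample 1 or aged sample 3 it did not pass (adjusted p = 0.106, 0.145, 0.0965 and 0.0956).

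The main promoter region of Ulk1 was at 6.76, 6.94 and 6.70 in young and 6.86, 6.91, 7.09 and 7.16 in aged samples, and the internal region stood at -2.50 ± 0.29 log2 units relative to the main one in young liver (SD, n = 3) and at -3.47 ± 0.25 in aged liver (SD, n = 4). The differences did not overlap, and the two-sided exact permutation test over samples gave p = 0.0571, which is the lowest possible with groups of 3 and 4, and 0.21 after adjustment over 11 comparisons. This test treats the 4 aged samples as separate, although they came from 3 animals. There was no overlap at 2 further regions either, so 3 of 11 regions were lower relative to the main one in every aged sample, where 22.0% of the other promoter regions of protein-coding genes were. In Atg2a an internal region at a retained-intron transcript differed between the ages relative to the main promoter region by -0.98, and in Tfeb the start 32240 bp into the gene (chr17:47768514-47770027), annotated for 2 protein-coding transcripts, differed by -0.89 (each exact permutation p = 0.0571, adjusted 0.21). The other 8 regions had exact permutation p from 0.114 to 0.914.

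That Tfeb start was at 3.90, 3.74 and 3.59 log2 CPM in young and 2.67, 2.51, 3.29 and 3.56 in aged samples, with a log2 fold change of -0.70 ± 0.24 (edgeR adjusted p = 0.0965). Aged sample 4 lay just below the lowest young sample. The other Tfeb starts had -0.18 ± 0.30 and -0.13 ± 0.16, beside 0.15 ± 0.11 at the main one.

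**Figure D4:**
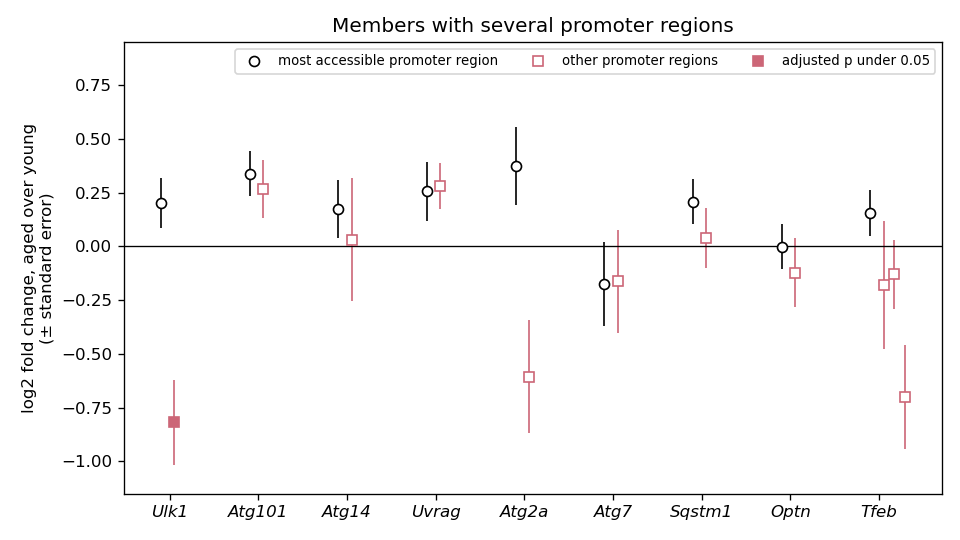
The log2 fold change, aged over young, with its standard error, at each promoter region of the 9 members that have several. Circles are the most accessible region of the gene and squares the others, filled where the adjusted p was under 0.05. The internal regions of Ulk1, Atg2a and Tfeb lie lowest, at -0.82, -0.61 and -0.70.

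Inside the genes, away from any TSS, 22 members had 67 regions and 13 members had none. Their median log2 fold change was -0.02, with 30 above and 37 below 0, beside -0.10 over all 23371 such regions of protein-coding genes. None was called more accessible and 2 were called less accessible, where 1.46% and 3.35% of all such regions were, and an unadjusted p under 0.05 was found at 3 regions with higher and 10 with lower accessibility, beside 6.89% and 14.0% of all such regions. DESeq2 and limma, run as alternatives, also called none more accessible.

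The larger of these changes was in Atg7 (chr6:114697687-114698085), 54789 bp from the start of the gene and in no annotated coding exon or UTR. Its counts were 48, 98 and 18 in young and 12, 1, 5 and 5 in aged samples, which is 2.21, 1.96 and 1.66 log2 CPM in young and 0.32, -1.36, 0.45 and -0.27 in aged samples. All aged samples were below all young ones. The log2 fold change was -2.23 ± 0.40 (edgeR adjusted p = 0.0119, 0.0012 to 0.062 over the alternatives), and it did not pass without young sample 1 or young sample 2 (adjusted p = 0.062 and 0.0515). It is in the weakest of the 10 classes of regions. The middle 300 bases on the plus strand of GRCm38 (chr6:114697736-114698035) are given because this is the largest change among the members. They held 1 CG dinucleotide, in capitals, and none of the 4 motifs.
Atg7 intron: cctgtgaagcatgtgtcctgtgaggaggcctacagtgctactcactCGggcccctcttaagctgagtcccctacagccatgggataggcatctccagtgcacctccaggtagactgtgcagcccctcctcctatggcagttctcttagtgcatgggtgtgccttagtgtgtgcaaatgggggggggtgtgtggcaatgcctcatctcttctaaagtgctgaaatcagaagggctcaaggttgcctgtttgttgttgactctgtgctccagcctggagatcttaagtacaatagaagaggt

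The other was in a coding exon of Wipi2 (chr5:142666778-142667076), 39229 bp from the start of the gene. It was at 1.89, 2.18 and 2.31 log2 CPM in young and 1.09, 1.23, 0.17 and 0.42 in aged samples, without overlap, a log2 fold change of -1.40 ± 0.32 (edgeR adjusted p = 0.0271, 0.017 to 0.11 over the alternatives). Without young sample 1, 2 or 3, or aged sample 1 or 3, it did not pass (adjusted p = 0.0744, 0.102, 0.0534, 0.0619 and 0.0793). Uvrag held the most body regions, 20, of which 12 were below 0 (-1.23 to 0.35), and Atg7 held 11, of which 4 were below 0.

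The rest of the pathway was counted by the same rule, over 121 genes of which Tfec alone had no promoter region. Of the other 120 genes 7 were more and 1 less accessible with age, beside 5.02% and 1.49% of all protein-coding genes, the median log2 fold change was 0.21, and 92 were above 0. The 24 other autophagy genes held 4 of the increases (median 0.31): Tmem41b, a lipid scramblase of the endoplasmic reticulum, rose by 0.52 ± 0.12 on the log2 scale, Pink1, the kinase that marks damaged mitochondria, by 0.50 ± 0.12, Bnip3, a mitophagy receptor, by 0.50 ± 0.11 and Zfyve1, a marker of the sites where autophagosomes form, by 0.39 ± 0.10 (edgeR adjusted p = 0.0274, 0.0272, 0.0256 and 0.0417). All aged samples were above all young ones at each of the 4. The Pink1 region also covers the TSS of Gm27646, and its reads cannot be assigned to one of them.

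Among 30 genes of lysosomal enzymes and membrane proteins Lipa, the acid lipase, rose by 0.52 ± 0.12 (edgeR adjusted p = 0.0264), and the median was 0.17. None of 12 genes of fusion with lysosomes (median 0.15), of 15 V-ATPase genes, which acidify lysosomes (median 0.14), or of 7 genes of other transcription factors of autophagy (median 0.30) was called. An unadjusted p under 0.05 was found with higher accessibility at 2, 3 and 3 of them and with lower accessibility at 0, 1 and 0, beside 27.3% and 7.69% of all protein-coding genes. In the lists with calls it was found with higher accessibility at 15 of 24 other autophagy genes, 11 of 30 lysosomal genes and 14 of 32 genes of mTORC1 and AMPK control. Lower accessibility was found there at 1, 1 and 2. Over all 120 genes these counts were 48 and 5. Of 32 genes of mTORC1 and AMPK control, Stk11, the kinase LKB1 that activates AMPK, and Sesn1, a sestrin that restrains mTORC1, rose by 0.49 ± 0.13 and 0.50 ± 0.13 (edgeR adjusted p = 0.042 and 0.0433), the Sesn1 region being shared with the TSS of Cep57l1, so that its reads cannot be assigned to one gene. Rragd, a RAG GTPase that recruits mTORC1 to lysosomes, fell by 1.02 ± 0.28 on the log2 scale (edgeR adjusted p = 0.0459), at 2.50, 3.06 and 2.69 log2 CPM in young and 1.50, 1.65, 1.58 and 2.29 in aged samples. The 7 increases were 0 without aged sample 1, aged sample 3, young sample 1 or young sample 2, 11 without aged sample 2, 6 without aged sample 4 and 4 without young sample 3, beside 0.115% to 0.338%, 6.66%, 4.64% and 3.19% of all protein-coding genes, and Rragd passed only when no sample or aged sample 4 was left out.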

How the data were processed

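The authors deposited raw counts, without normalization, for 55680 consensus regions in 3 young and 4 aged liver libraries. By the paper and the submitters' processing notes they trimmed reads (cutadapt 1.13), aligned them to GRCm38 (Bowtie2 2.4.1), removed PCR duplicates, mitochondrial and low-quality reads, called peaks per library (MACS2 2.2.7) and counted with featureCounts; duplicate removal leaves no molecular identifiers, so counts carry counting error beside the spread between samples. Regions were annotated with GENCODE M21, and a promoter region overlapped TSS ± 200 bp by at least 1 bp. A gene with several was represented by its most accessible one (mean log2 CPM).

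Counts of all regions were tested with edgeR 4.0.16 (R 4.3.3; TMM, quasi-likelihood test, age only, Benjamini-Hochberg adjustment at 0.05). Values per sample are log2 CPM with a prior count of 2, and differences between regions of 1 gene were tested by exact permutation of the samples, two-sided, with 35 arrangements. The script was tested on simulated data. Alternatives were DESeq2 1.42.0, limma 3.58.1, other scalings (total counts, size factors, loess offsets on mean abundance or GC content with a span of 0.3), filters (10 counts in every sample, filterByExpr), a threshold of 0.01, wider promoters (1000 bp), protein-coding transcripts, another choice of region, a prior count of 0.5, leaving out each sample, adding up aged samples in each of 6 pairs and a replicate block. Replicate numbers did not pair the samples. No 2 libraries of the same age agreed within sampling noise (chi-square per degree of freedom 2.38 to 6.06 over 9 pairs), and none of the members' regions had a near-identical copy (minimap2 2.31, 95% identity over 80% of the region). Promoter windows were RefSeq's on GRCm38.p6, matched for 28 of 35 members; Rb1cc1, Becn1, Pik3c3, Map1lc3a, Atg7, Atg12 and Atg16l1 were not matched.

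The members and the lists were chosen with earlier results of these data known. Per-sample values are given for called members, the 5 highest and 5 lowest log2 fold changes, the most and least accessible member per kb and called gene body regions; those of Atg13, Atg101, Tfe3, Tfeb, Ulk1 and Rragd were added after the values were seen. RNA-seq and the study's other data were not analysed here.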

Additional observations from a re-analysis of the deposited data

Results flagged for a closer look

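At the promoter region of Pik3r4 aged sample 4 stood apart, at 2.741 log2 CPM beside 3.12 to 3.18 in the other 3 aged samples. Of 38 sets of 4 aged values checked for such a gap this was 1, and chance gives about 1 in 20.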

How the results depend on the processing

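With 7 samples and adjusted p close to 0.05, the calls depended on the setting, and where no cause is named the cause was not tested. The 3 members with a more accessible promoter became 5 with the DESeq2 Wald test (Atg13 and Atg101 added), 9 with GC offsets, 1 with aged samples 1 and 2 summed (Gabarap), and 0 with 4 other sums (1 and 3, 1 and 4, 2 and 3, 3 and 4), at least 10 counts in every sample, the replicate block, total counts, abundance offsets and a threshold of 0.01; leaving out a sample gave 0 to 2. No member was less accessible except Lamp1 with total counts (1), where 2.97% of all protein-coding genes were. The share of all protein-coding genes called more accessible moved with these settings too. It was 5.02% with the settings of the report, 16.6% with GC offsets, 11.9% with DESeq2, 9.2% with limma voom, 7.64% with size factors, 3.27% with the replicate block, 1.67% with total counts, 1.43% with at least 10 counts in every sample, 0.115% with abundance offsets and 0.0537% at 0.01. With sums of aged samples it was 9.15% (2 and 4), 3.9% (1 and 2), 3.03% (1 and 4), 2.41% (2 and 3), 1.99% (3 and 4) and 0.591% (1 and 3), and it was 0.115% to 6.66% when a sample was left out. The members' median of 0.18 was 0.066 with total counts and -0.073 with abundance offsets. Over all promoter regions the median moved from 0.094 to -0.025 and -0.028. The 10 members with every aged sample above every young one were 6 and 3 there, and 3 to 13 over 5 alternative scalings and prior counts. The matching share of all protein-coding genes, 24.0% with the settings of the report, was not counted in the alternatives. These counts therefore do not set the members apart. The 2 less accessible gene body regions were 4 with limma voom, total counts or aged 2 and 4 summed, 1 with abundance offsets, aged 1 and 3 summed or the replicate block, 0 with at least 10 counts in every sample, which leaves out weak regions, or at 0.01, and 0 to 3 when a sample was left out. Calls of lower accessibility over all regions moved too. They were 1838 with the settings of the report, 2383, 2931 and 2578 in the first 3 of these settings and 561, 693 and 2593 in the next 3. With at least 10 counts in every sample they were 802, and 133 to 2600 when a sample was left out. The share over gene body regions alone was not counted in the alternatives. The median of -0.02 over all gene body regions of the members was -0.14 with total counts, -0.11 with aged 2 and 4 summed and -0.12 to -0.032 when a sample was left out. Its highest value over 24 alternatives was 0.0083, on the other side of 0.

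The 7 more accessible pathway genes were 25 with GC offsets, 23 with DESeq2, 16 with limma voom, 13 with aged 2 and 4 summed, 11 with size factors, 4 with aged 3 and 4 summed, 3 with total counts or aged 2 and 3 summed, 2 with the replicate block, 1 with at least 10 counts in every sample, 0 with abundance offsets, aged 1 and 3 summed or 0.01, and 0 to 11 when a sample was left out, beside the shares of all protein-coding genes given above. The 1 less accessible pathway gene was 0 with abundance offsets, aged 1 and 2, 1 and 3, 2 and 3 or 3 and 4 summed, at least 10 counts in every sample and 0.01, and 0 to 1 when a sample was left out. Of all protein-coding genes 1.49% were called less accessible with the settings of the report. In the first 6 of these settings the share was 0.575%, 1.06%, 0.591%, 0.844%, 1.17% and 0.935%. It was 0.069% to 2.28% when a sample was left out and was not counted at 0.01. Replicate numbers only name the samples here (correlations of same-numbered samples -0.119, 0.056 and 0.030), and the replicate block changed counts as given above.

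Signs of single members turned as follows. With abundance offsets the log2 fold change was -0.15 at Ulk1, -0.088 at Ulk2, -0.086 at Rb1cc1, -0.074 at Uvrag, -0.19 at Atg2b, -0.047 at Wipi2, -0.052 at Atg3, -0.16 at Atg12, -0.19 at Atg4b, -0.088 at Atg4c, -0.073 at Map1lc3a, -0.18 at Map1lc3b, -0.11 at Gabarapl2, -0.081 at Sqstm1 and -0.16 at Tfeb. With total counts it was -0.0097 at Pik3c3, -0.088 at Atg2b, -0.053 at Atg12, -0.029 at Atg4b, -0.056 at Atg4c, -0.041 at Map1lc3a and -0.10 at Map1lc3b. With at least 10 counts in every sample it was -0.0067 at Atg2b and -0.025 at Map1lc3b, and with the replicate block -0.024 at Atg2b, -0.0087 at Map1lc3b and 0.010 at Optn. Summed aged samples gave -0.013 at Atg2b (3 and 4), -0.0002 and -0.0008 at Map1lc3b (1 and 4, 3 and 4) and 0.0053, 0.0022 and 0.012 at Optn (1 and 2, 2 and 3, 2 and 4). Optn was 0.030 with DESeq2, 0.030 with size factors and 0.11 with GC offsets. Leaving out a sample gave -0.050 to 0.12 at Atg2b, -0.0022 to 0.13 at Atg12, -0.0046 to 0.16 at Atg4c, -0.057 to 0.065 at Map1lc3b and -0.029 to 0.035 at Optn. No other sign changed in these settings among the members' 35 promoter regions and the 3 called regions elsewhere in Ulk1, Wipi2 and Atg7.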
